A study of Gallus gallus with 9 samples.

Results

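Growth hormone, insulin-like growth factor (IGF) and hepatocyte growth factor (HGF) genes were followed in the liver of broilers, chickens of the meat line ROSS308, on 2 diets. The members were taken from a list of 10 genes, GHR, IGF1, IGF2, IGFBP1, IGFBP2, IGFBP3, IGFBP4, STAT5B, HGF and MET, and comprised every probe set whose only gene symbol in the platform annotation is one of them. This gave 13 probe sets of 9 genes, out of 38439 probe sets and 13009 named genes on the array. STAT5B had no probe set under its own symbol, and it is represented below by a gene annotated as STAT5A for which the RefSeq table gives STAT5B as a synonym. The Se-yeast group (5 birds) ate a standard diet to which the selenized yeast Sel-Plex was added, giving 0.5 mg of added selenium per kg of diet. The control group (4 birds) ate the standard diet without the supplement. All birds were fed freely for 35 days and were 35 days old, and liver RNA of each bird was measured on 1 Affymetrix chicken array. A control sample that failed quality requirements was left out by the submitters, and the labels name no sex, pen or array batch.

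Growth hormone from the pituitary binds its receptor GHR on hepatocytes, and JAK2 and STAT5 then carry the signal to the nucleus, where IGF1 is one of the best known targets. IGF1 and IGF2 circulate bound to IGF binding proteins (IGFBPs), which govern how much of the ligand reaches its receptor. HGF is a separate growth factor, made in mammalian liver mainly by stellate and endothelial cells, and it acts on hepatocytes through the receptor tyrosine kinase MET. In chickens GHR lies on the Z sex chromosome, of which male birds carry a pair and females a single copy.

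The values are MAS5 signals, which summarise the probes of a probe set on a linear scale. They are scaled so that the mean of the signals between the 2nd and 98th percentiles is the same on every array. Each change is therefore relative to the rest of the array. The median signal was 113 ± 11.0 on the Se-yeast arrays and 108 ± 6.79 on the control arrays (SD, n = 5 and 4, two-sided exact permutation p = 0.429). For RNA quality, the signal of GAPDH probes at the 3′ end over that at the 5′ end was 0.805 ± 0.0467 in Se-yeast and 0.806 ± 0.0295 in control birds (exact permutation p = 0.976). The mean correlation of an array with the others was 0.948 ± 0.00306 for Se-yeast and 0.953 ± 0.00253 for control birds (exact permutation p = 0.0397, adjusted p = 0.199 over 5 array measures). The hepatocyte markers fixed for checking the tissue were bright in every bird: all 10 markers with a probe set passed the signal filter, and their summed signal ran from 460445 to 702665 in Se-yeast and from 388170.3 to 461902 in control birds. One bird stood apart by its sex chromosomes. HINTW, a gene of the female-specific W chromosome, had a signal of 16428 in Se-yeast replicate 1 and of 6.34 to 19.5 in the other 4 Se-yeast birds. In the 4 control birds it was 6.14 to 19.0. LOC430910, a second W-linked gene, was also highest in Se-yeast replicate 1, at 1275 against 12.8 to 115 in the other Se-yeast and 5.95 to 104 in the control birds. Both were picked from 39 W-linked probe sets for their large spread over these same birds, so they are not independent evidence. Changes of HGF, GHR, IGF1, IGFBP1, IGFBP2, IGFBP4 and 1 IGF2 probe set are also given with Se-yeast replicate 1 left out.

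Of the 13 probe sets, 11 passed the filter (a mean of log2(signal + 16) over the 9 birds of at least 6.33, which a constant signal of 64.7 would give), covering all 9 genes. They were fitted with limma together with the other tested probe sets, 23063 in all, on log2(signal + 16), with Benjamini-Hochberg adjustment over that whole set. None of the 11 passed an adjusted p of 0.05, while 0.026% of all tested probe sets did. HGF was the 1 member at an unadjusted p under 0.05, a level reached by 4.67% of all tested probe sets. The changes, always as Se-yeast minus control, were positive for 7 and negative for 4 of the 11, with a median of 0.07 on the log2 scale beside 0.02 over all tested probe sets. For 10 of the 11 the 95% interval of the change included 0.

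**Figure D1:**
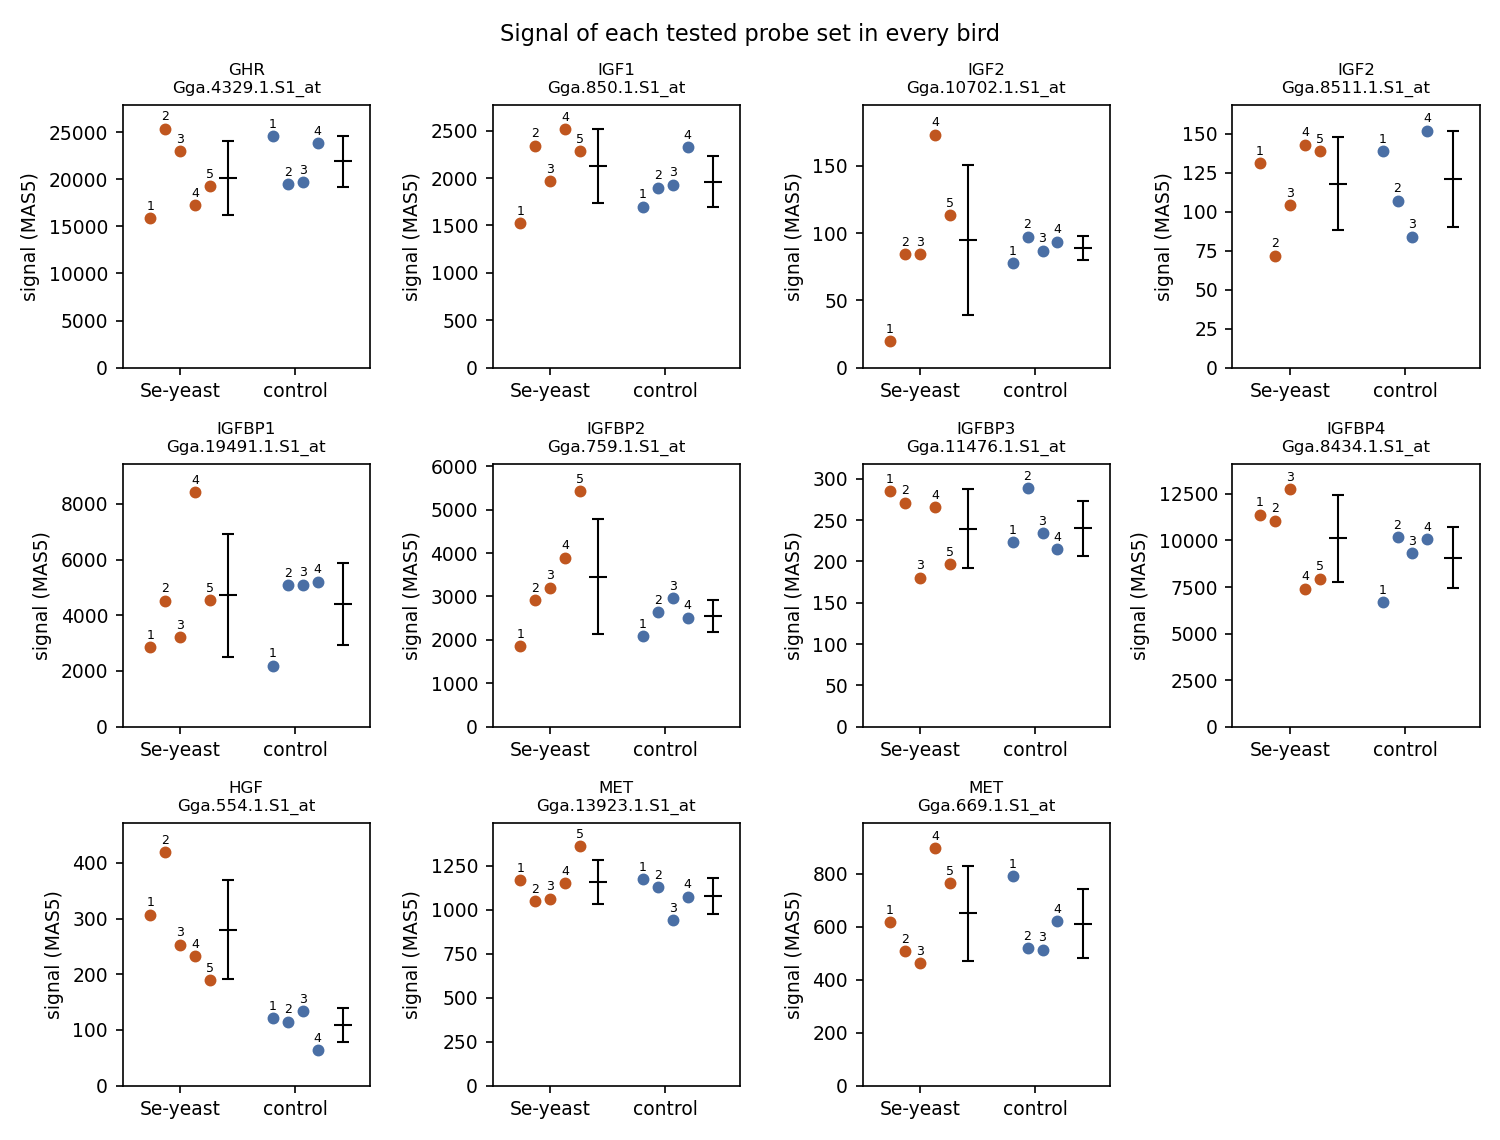
MAS5 signal (linear axis from 0) of the 11 probe sets that passed the filter, with 1 point per bird labelled by its replicate number and the mean ± SD beside each group. HGF is the panel in which all 5 Se-yeast birds, from 189 to 419, lie above all 4 control birds, from 64.3 to 134.

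HGF, the growth factor that stimulates hepatocyte growth and movement through MET, separated the diets, with all 5 Se-yeast signals above all 4 control signals, but the difference did not pass the adjusted threshold. Its signals were 307, 419, 253, 232 and 189 in Se-yeast replicates 1 to 5, against 121, 115, 134 and 64.3 in control replicates 1 to 4. The groups did not overlap, and Se-yeast replicate 2 was the highest and control replicate 4 the lowest of the 9 birds. Such a separation, with Se-yeast higher, was found for 0.889% of all tested probe sets. The mean signal was 280.0 ± 88.7 in Se-yeast and 109 ± 30.7 in control birds (SD, n = 5 and 4), a ratio of means of 2.57. On the log2(signal + 16) scale the change was 1.24 ± 0.26 (SE), or 2.36-fold, with a 95% interval of 1.59-fold to 3.49-fold that is not adjusted for the number of probe sets. The unadjusted p was 0.000431, rank 18 among the tested probe sets, and limma's adjusted p was 0.552.

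HGF is read by 1 probe set on this array. Its control signals were 115 to 134 in replicates 1 to 3 and 64.3 in replicate 4, beside a filter level of 64.7. The spread between birds of one diet was the same in both groups, with an SD of 0.41 on the log2 scale in each. Without Se-yeast replicate 1, the bird with the high HINTW signal, the change of HGF was 1.19. Its lowest value over the bird-by-bird omissions was 1.04, without control replicate 4, the dimmest bird, and its highest 1.36, without Se-yeast replicate 5. With other constants added before taking logs, the change of HGF was 0.98 with 64 and 1.35 with 1.

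**Figure D2:**
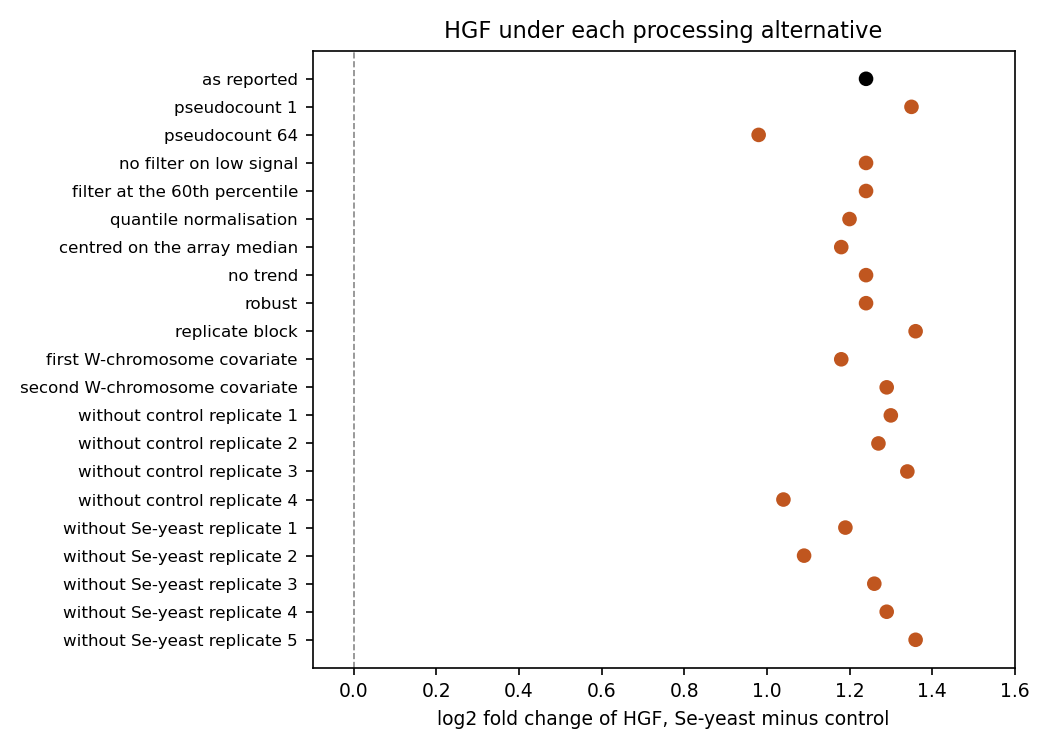
The log2 fold change of HGF (x axis, Se-yeast minus control) as reported and under each of the 20 processing alternatives (1 row each), with a dashed line at 0. All points lie to the right of 0, between 0.98 and 1.36, and none of these fits gave an adjusted p below 0.493.

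Markers of the cell types that could hold HGF transcripts were compared beside it. The mean log2 level of the 12 stellate cell and fibroblast markers was 9.53 ± 0.09 in Se-yeast and 9.53 ± 0.14 in control birds (SD, n = 5 and 4). PDGFRA, ACTA2 and DES of that list lay under the filter but are part of this mean, with changes of -0.41, 0.29 and -0.52. Of the 12 changes 8 were positive, and the median was 0.07 on the log2 scale. The summed signal of the 12 markers was 38176 to 41181 in Se-yeast and 35046.0 to 38893 in control birds. The 7 endothelial markers with a probe set had mean log2 levels of 10.51 ± 0.23 and 10.49 ± 0.20 in Se-yeast and control birds. Macrophage markers had a positive change for 6 of 6 genes with a probe set. Their summed signal was 65912 to 82203 in Se-yeast and 51261 to 68251 in control birds. Mean log2 levels were 12.98 ± 0.14 in Se-yeast and 12.75 ± 0.16 in control birds. The groups did not overlap for CSF1R of that list, at 4185 ± 446 in Se-yeast and 3238 ± 179.7 in control birds. Such a separation with Se-yeast higher was found for 0.889% of all tested probe sets. For hepatocyte markers the change was positive for 9 of 10 genes, with a median of 0.30 on the log2 scale. Their mean log2 levels were 15.53 ± 0.19 in Se-yeast and 15.28 ± 0.12 in control birds. Mean log2 levels of bile duct markers were 8.23 ± 0.24 in Se-yeast and 8.04 ± 0.28 in control birds, those of red blood cell markers 9.32 ± 0.35 and 9.40 ± 0.60, and those of lymphocyte markers 9.11 ± 0.25 and 9.02 ± 0.36, in Se-yeast and control birds. Changes were positive for 5 of 7 endothelial, 4 of 5 bile duct, 1 of 6 red blood cell and 5 of 7 lymphocyte markers. No gene of these 7 marker lists passed the adjusted threshold. The part of these cell types in the HGF values was not tested. In whole liver, more cells of a type and more RNA per cell cannot be told apart.

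MET, the receptor for HGF, overlapped between the diets on both of its probe sets. On the brighter one the signals were 1169, 1049.6, 1062, 1149.9 and 1361 in Se-yeast replicates 1 to 5, against 1174, 1126, 939 and 1073 in control replicates 1 to 4. Only Se-yeast replicate 5 lay above, and only control replicate 3 below, the range of the other group. The means were 1158 ± 125 in Se-yeast and 1078 ± 102 in control birds (SD, n = 5 and 4), and the change was 0.10 on the log2 scale with a 95% interval from -0.19 to 0.39 (limma adjusted p = 0.999). This was the steadiest member across birds, with a within-group SD of 0.14 on the log2 scale, at the 5.26th percentile of the tested probe sets. The dimmer probe set had signals of 463 to 896 in Se-yeast birds (median 617) and of 513 to 791 in control birds. Its change was 0.07 with an interval from -0.40 to 0.53. The 2 probe sets differed in which bird was highest, Se-yeast replicate 5 on the brighter and Se-yeast replicate 4 on the dimmer. Both intervals lay below the HGF estimate of 1.24.

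**Figure D3:**
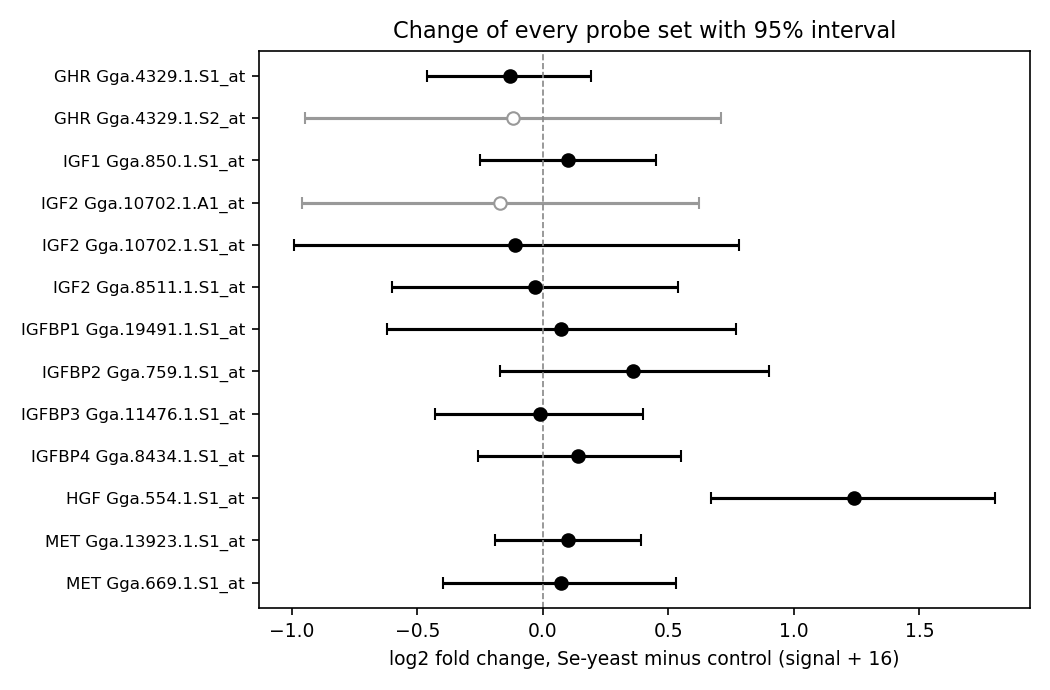
Log2 fold change (x axis, Se-yeast minus control, on signal + 16) of all 13 probe sets with 95% intervals from limma; filled black points passed the signal filter, and open grey points lay under it and come from the fit without a filter. HGF at 1.24 is the 1 probe set whose interval lies wholly above 0.

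GHR, the growth hormone receptor, was bright in all birds and overlapped between the diets. Signals on its bright probe set were 15858, 25341, 22996, 17243 and 19264 in Se-yeast replicates 1 to 5, against 24584, 19483, 19669 and 23835 in control replicates 1 to 4. Se-yeast replicate 1 was the lowest and Se-yeast replicate 2 the highest of all birds, so the supplemented group spanned the control group on both sides. The means were 20140.5 ± 3959 in Se-yeast and 21893 ± 2694 in control birds (SD, n = 5 and 4). The change was -0.13 ± 0.15 (SE) on the log2 scale, with an interval from -0.46 to 0.19 (limma adjusted p = 0.999). A second probe set lay under the filter at 14.9 to 82.8 in Se-yeast and 36.0 to 80.4 in control birds, with a change of -0.12 in the fit without a filter. Its sign depended on single birds: the change was 0.14 with Se-yeast replicate 1 left out and 0.05 with control replicate 3 left out.

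Because GHR is on the Z chromosome, its level was set beside the other tested Z-linked probe sets, 779 including GHR itself. In Se-yeast replicate 1 GHR was 0.43 lower on the log2 scale than the mean of the other 8 birds, and the median Z-linked probe set was 0.36 lower. The median of the 16956 tested probe sets on numbered chromosomes differed by 0.04 in that bird. In the other 8 birds the Z median lay between -0.03 and 0.16, while GHR lay between -0.29 and 0.33. In Se-yeast replicate 4 GHR was at -0.29 and the Z median at 0.16. The part of Z-chromosome copy number in the GHR values was not tested. Without Se-yeast replicate 1 the GHR change was -0.05, and with the level of HINTW or LOC430910 as a covariate it was -0.05 or -0.03.

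**Figure D4:**
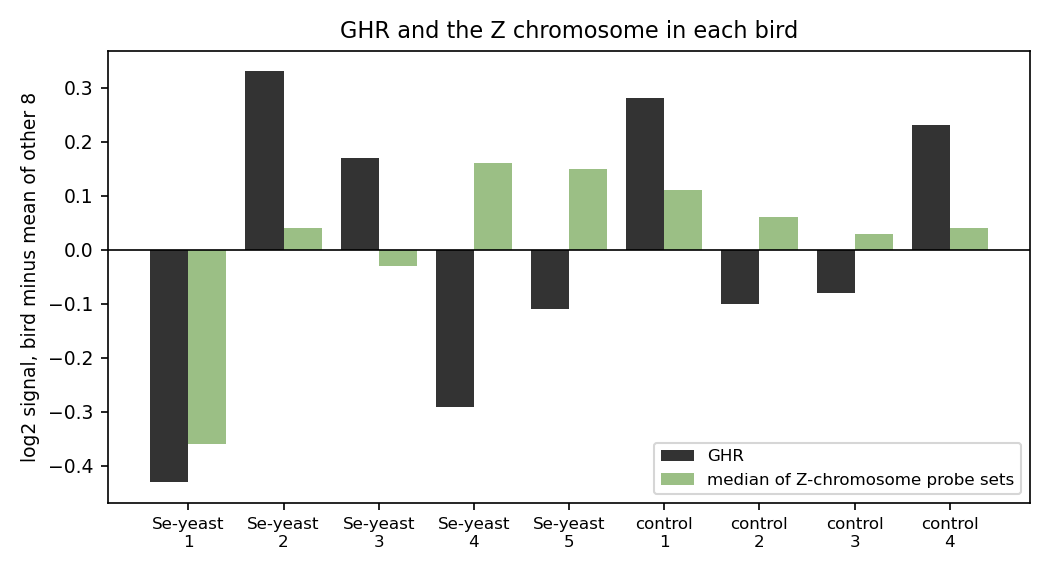
For each bird, the log2 signal of GHR and the median over 779 Z-chromosome probe sets, both as the difference from the mean of the other 8 birds. In Se-yeast replicate 1 both bars are low, at -0.43 and -0.36, whereas in Se-yeast replicate 4 GHR is at -0.29 and the Z median at 0.16.

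IGF1, the growth hormone-dependent ligand that liver secretes into blood, also overlapped between the diets. Its signals were 1522, 2339.7, 1965, 2513 and 2285 in Se-yeast replicates 1 to 5, against 1699, 1897, 1929.9 and 2328 in control replicates 1 to 4. Se-yeast replicate 1 had the lowest value and Se-yeast replicate 4 the highest, and the control values lay between them. The means were 2125 ± 391 in Se-yeast and 1963 ± 264 in control birds (SD, n = 5 and 4). The change was 0.10 with an interval from -0.25 to 0.45 on the log2 scale, or 0.839-fold to 1.37-fold (limma adjusted p = 0.999). It was 0.22 without Se-yeast replicate 1, unadjusted p = 0.16 in the limma fit, and 0.04 with Se-yeast replicate 4 or control replicate 1 left out.

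IGF2, the other IGF ligand, gave dim signals on 3 probe sets that did not rank the birds alike. On the brightest, signals were 71.8 to 143 in Se-yeast birds (median 131) and 84.1 to 152 in control birds, and the change was -0.03 with an interval from -0.60 to 0.54. On the next brightest they were 19.5 to 173 in Se-yeast birds (median 84.1) and 77.5 to 97.4 in control birds. That spread in the Se-yeast group, an SD of 0.90 on the log2 scale beside 0.12 in control, rested on Se-yeast replicate 1 at 19.5 and replicate 4 at 173. The change on this probe set was -0.11, and 0.26 without Se-yeast replicate 1. The third lay just under the filter, which works on the log scale (mean log2(signal + 16) of 6.26 in Se-yeast and 6.43 in control birds), with mean signals of 65.7 ± 31.9 in Se-yeast and 72.0 ± 21.2 in control birds (SD, n = 5 and 4). IGF2 signals near the filter cannot be called present or absent, since the table used here holds no detection calls.

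Of the binding proteins, IGFBP2, which in mammals rises in fasting, had the largest change after HGF among the members, and it did not pass. Signals were 1852, 2911, 3199.8, 3892 and 5427 in Se-yeast replicates 1 to 5, against 2078, 2633, 2962 and 2513 in control replicates 1 to 4. Se-yeast replicates 3, 4 and 5 lay above every control bird and Se-yeast replicate 1 lay below them all. The means were 3456 ± 1324 in Se-yeast and 2546 ± 365 in control birds (SD, n = 5 and 4), and the change was 0.36 ± 0.25 (SE) on the log2 scale with an interval from -0.17 to 0.90 (limma adjusted p = 0.999). Without Se-yeast replicate 1 it was 0.57 (unadjusted p = 0.0139 in the limma fit, adjusted p = 0.999). With Se-yeast replicate 5 left out, the highest bird, it was 0.18 (unadjusted p = 0.409 in the limma fit). With the replicate number as a block it was also 0.18.

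IGFBP1, which in mammals is raised by fasting and lowered by insulin, was among the more variable members. Signals were 2855, 4520.3, 3204, 8422 and 4552 in Se-yeast replicates 1 to 5, against 2189, 5088, 5103 and 5199 in control replicates 1 to 4. Control replicates 2, 3 and 4 were nearly equal, control replicate 1 was the lowest of all 9 birds and Se-yeast replicate 4 the highest. The within-group SD was 0.61 on the log2 scale, at the 86.7th percentile of the tested probe sets. The change was 0.07 with an interval from -0.62 to 0.77, and it was -0.23 with control replicate 1 left out and 0.23 with Se-yeast replicate 1 left out.

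IGFBP3, the main carrier of IGF1 in mammalian plasma and the neighbour of IGFBP1 in the chicken gene table, had closely matching means of 239.8 ± 47.5 in Se-yeast and 240.2 ± 33.5 in control birds (SD, n = 5 and 4). Its signals ran from 180.2 to 285 in Se-yeast birds (median 266) and from 215 to 289 in control birds. The change was -0.01 with an interval from -0.43 to 0.40. IGFBP4, which binds both IGFs and restrains their action, had signals of 11394, 11059.8, 12765, 7416 and 7949 in Se-yeast replicates 1 to 5. In control replicates 1 to 4 they were 6699, 10193, 9328 and 10066. Se-yeast replicates 1, 2 and 3 exceeded all controls, while Se-yeast replicates 4 and 5 lay above only control replicate 1. The change of IGFBP4 was 0.14 with an interval from -0.26 to 0.55, and it was 0.09 with Se-yeast replicate 1 left out and 0.01 with control replicate 1 left out.

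Levels of the members were then compared bird by bird. Se-yeast replicate 1 had the lowest signal of all 9 birds for GHR, IGF1 and IGFBP2, and the second lowest for IGFBP1, but the second highest for IGFBP3, IGFBP4 and HGF. Pairs of genes were compared on the brightest probe set of each, after taking off the mean of the diet group, in all 36 pairs. No pair passed after Benjamini-Hochberg adjustment for Pearson's or Spearman's coefficient, and 4 had an unadjusted p under 0.05 for Pearson's r. Birds were permuted across both diets after the group means were taken off, which can make the p-values of pairs too small. IGF1 and IGFBP1 had r = 0.78 (exact permutation p = 0.0125, adjusted p = 0.25, n = 9) and rho = 0.83 (exact permutation p = 0.00827, adjusted p = 0.194). With the 2 birds farthest from the median of IGF1 left out, r was 0.71, and it was 0.79 without Se-yeast replicate 1. IGF2 and HGF had r = -0.78 (exact permutation p = 0.0139, adjusted p = 0.25, n = 9) and rho = -0.82 (exact permutation p = 0.0108, adjusted p = 0.194). Without the 2 birds farthest from the median of IGF2 that r was -0.50. The dim IGF2 probe sets did not rank the birds alike, and only the brightest of them was compared with other genes. IGF1 and IGFBP2 had r = 0.71 (exact permutation p = 0.038, adjusted p = 0.342, n = 9) and rho = 0.63 (exact permutation p = 0.076, adjusted p = 0.684), and r was 0.38 without Se-yeast replicate 1. IGF2 and MET had r = 0.71 (exact permutation p = 0.0327, adjusted p = 0.342, n = 9) and rho = 0.57 (exact permutation p = 0.121, adjusted p = 0.794). Their r was 0.38 without the 2 birds farthest from the median of IGF2. GHR and IGF1, receptor and target, had r = 0.32 (exact permutation p = 0.413, adjusted p = 0.91, n = 9) and rho = 0.08 (exact permutation p = 0.843, adjusted p = 0.966), and r was -0.13 without Se-yeast replicate 1. HGF and its receptor MET had r = -0.50 (exact permutation p = 0.166, adjusted p = 0.684, n = 9) and rho = -0.42 (exact permutation p = 0.27, adjusted p = 0.794). Each diet group holds fewer than 6 birds, so no coefficient was computed within one diet.

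**Figure D5:**
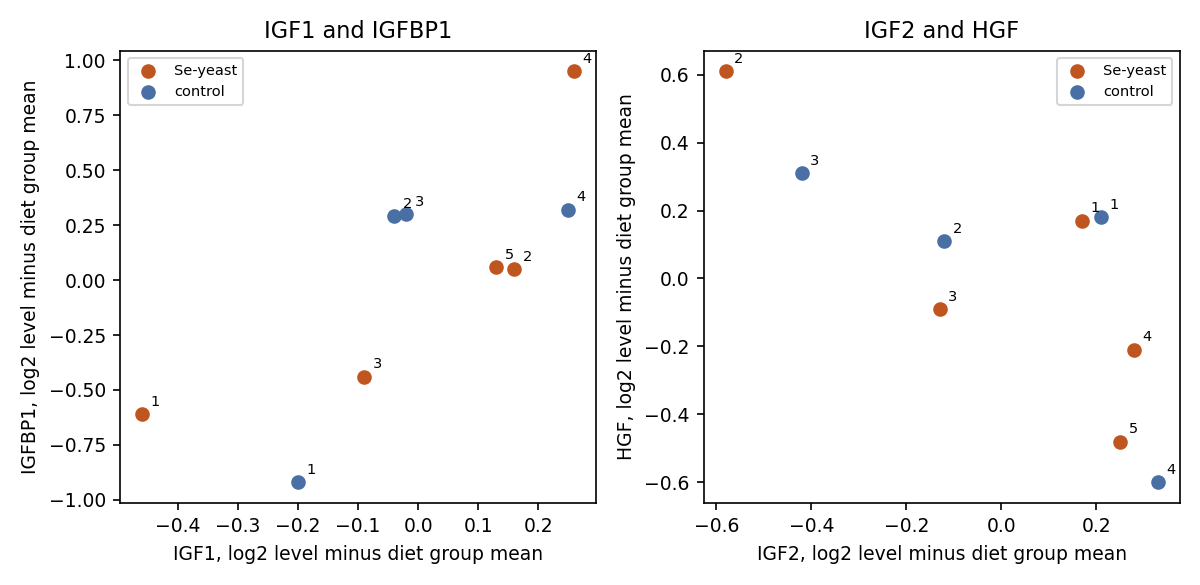
Log2 level minus the diet group mean for IGF1 (x) against IGFBP1 (y) and for IGF2 (x) against HGF (y), with 1 point per bird labelled by replicate number. The first pair tended to rise together (r = 0.78) and the second to move in opposite directions (r = -0.78), but not in every bird. Control replicates 2 and 3 were below their group mean for IGF1 and above it for IGFBP1. Se-yeast replicate 1 and control replicate 1 were above it for both IGF2 and HGF, and Se-yeast replicate 3 was below it for both. Neither pair passed after adjustment over the 36 pairs. IGF2 is read here only from the brightest of its dim probe sets, which did not rank the birds alike.

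For each member, the gene outside the list with the most similar pattern over the 9 birds was sought among 10373 genes, each by its brightest tested probe set. With 9 birds and that many genes, high coefficients arise for any pattern, so they are given as descriptions of likeness. Diet group means were not taken off here, unlike for the pairs of members. HGF was most like SCNN1A, a subunit of the epithelial sodium channel (r = 0.93). The signal of SCNN1A was 187 ± 60.7 in Se-yeast and 100 ± 14.5 in control birds (SD, n = 5 and 4), at a change of 0.76 (limma adjusted p = 0.999). That change is no separate result, since a gene picked for likeness to HGF tends to share its difference between the diets. IGF1 was most like OPN3, an opsin, GHR most like GPSM1, a regulator of G protein signalling, and IGFBP3 most like the phosphatase DUSP5, each with r = 0.94. IGFBP1 was most like CYP2W1, a cytochrome P450, also with r = 0.94. For IGFBP2 the nearest was MED20, a Mediator subunit (r = 0.98), and for MET it was RAB18, a small GTPase (r = 0.97). IGFBP4 was nearest to PIGU and IGF2 to the coactivator NCOA6 (r = 0.96 for both).

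The other genes of these pathways were read from 4 lists, each gene by its brightest tested probe set, and none of their genes passed in either direction. The median change over all 10382 genes was 0.02 on the log2 scale, and 53.0% of them had a positive change. An unadjusted limma p under 0.05 was reached by 2 genes of the growth hormone receptor list and 1 of the shared signalling list. The other lists had 0 such genes, and over all tested probe sets the share was 4.67%. Intervals given for the listed genes are not adjusted for the number of probe sets. Among genes acting next to the growth hormone receptor, 11 of 16 listed genes were tested, and 9 had a positive and 2 a negative change, with a median of 0.17. STAT3, a transcription factor of cytokine receptors, had signals of 2298 to 3163 in Se-yeast and 1875 to 2266 in control birds, which did not overlap, at a change of 0.37 (limma adjusted p = 0.999). Such a separation with Se-yeast higher was found for 0.889% of all tested probe sets. STAT3 has 4 probe sets, only its brightest tested one was read, and the interval of its change was 0.08 to 0.65. PRLR, the prolactin receptor, is a relative of GHR that is also Z-linked. It averaged 157 ± 24.0 in Se-yeast and 108 ± 21.3 in control birds (SD, n = 5 and 4). Its change was 0.48 with an interval from 0.0 to 0.95 (limma adjusted p = 0.999). CISH, a STAT5-induced inhibitor of the receptor, varied widely, from 865 to 1821 in Se-yeast and from 289 to 1657 in control birds, at a change of 0.66. The STAT5 gene annotated as STAT5A had signals of 2133 to 3719 in Se-yeast and 2133 to 2575 in control birds, and a change of 0.22 with an interval from -0.13 to 0.58.

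IGF carriers, receptors and processing factors gave 13 tested genes of 20, with 8 positive and 5 negative changes and a median of 0.10. INSR, the insulin receptor, stood at 0.39, with means of 619 ± 204 in Se-yeast and 454 ± 50.5 in control birds (SD, n = 5 and 4). Se-yeast replicate 4 had a signal of 978, against 471 to 563 in the other Se-yeast birds and 418 to 526 in control birds. IGFBP7, a secreted protein related to the IGFBPs, stood at 0.19, the adaptor IRS2, which links the insulin and IGF receptors to downstream kinases, at 0.28, and GRB10, an inhibitory adaptor of the same receptors, at -0.19. None of these 4 passed (limma adjusted p = 0.999 for each). INSR and IRS2 have 4 probe sets each and GRB10 has 2, and only the brightest tested one of each was read. In the list for HGF activation and MET signalling, 10 of 15 genes were tested, with 7 positive and 3 negative changes and a median of 0.11. SPINT1, an inhibitor of the proteases that activate HGF, averaged 1454 ± 434 in Se-yeast and 1077 ± 104 in control birds (SD, n = 5 and 4), a change of 0.39 with an interval from -0.02 to 0.80. CBL, the ubiquitin ligase that removes active MET, stood at 0.37, MST1, an HGF-like protein made by hepatocytes, at 0.23, and its receptor MST1R at 0.31.

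The signalling genes shared by these receptors gave 17 tested genes of 24, with 10 positive and 7 negative changes and a median of 0.06. EIF4EBP1, a translational repressor controlled by mTOR, averaged 15522 ± 1141 in Se-yeast and 18855 ± 2834 in control birds (SD, n = 5 and 4). Its change was -0.27 with an interval from -0.54 to -0.01 and overlapping groups (limma adjusted p = 0.999). MAP2K1, the kinase that activates ERK, had signals of 2324 to 2549.5 in Se-yeast birds, all below the control range of 2565 to 2814, at a change of -0.18 (limma adjusted p = 0.999). Such a separation with Se-yeast lower was found for 0.75% of all tested probe sets. MAP2K1 has 2 probe sets, only its brightest tested one was read, and the interval of its change was -0.41 to 0.05. MTOR, the kinase itself, stood at 0.35, and FOXO1, a transcription factor inhibited by insulin and IGF signalling, at 0.21. MTOR has 4 probe sets, and only its brightest tested one was read.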

How the data were processed

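Liver RNA of 9 birds was measured on 1-colour arrays. The authors deposited probe set intensities on a linear scale made with MAS5, per the submitters' processing notes. Of 38535 rows, 96 array controls were left out, and genes were named from the 27168 probe sets with 1 symbol. Probe sets with a mean log2(signal + 16) at or above the 40th percentile (6.33) were tested with limma 3.58.1 in R 4.3.3 (lmFit, eBayes with an intensity trend, two-sided, no covariates). Array measures were compared by exact permutation over 126 splits, and pairs of genes over all orders of 9 birds, not within each diet. The fit was tested on simulated data with normal noise, independent between probe sets, and 200 changed probe sets per run. It found 2.39% of changes of 0.5 on the log2 scale, 34.3% of changes of 1 and 79.7% of changes of 2. In the birds only 6 probe sets passed. With fewer changed probe sets than 200 the adjustment is stricter, so these rates can be too high for this comparison. False calls averaged 3.2 per run over 5 runs. A change under the threshold is therefore not shown to be absent. The genes named are all probe sets of the members, up to 4 genes per pathway list by smallest p, and the gene most like each member. The members and lists were chosen with earlier results of these data known. The labels number birds as biological replicates and do not link equal numbers. The number of arrays limits the precision. Adjusted p-values of changes are limma's. Those of the array measures and gene pairs are Benjamini-Hochberg adjustments of the permutation p-values. Listed genes without a probe set were not analysed here. Alternatives covered the added constant, filter, scaling, variance model, replicate block, W-linked covariates and omission of each bird.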

Additional observations from a re-analysis of the deposited data

Results flagged for a closer look

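Of 62 diet groups examined over the named probe sets, 4 had a bird far from the rest of its group, where chance gives about 1 in 20. IGFBP1 had a signal of 2189 in control replicate 1, against 5088 to 5199 in the other control birds. PRLR had 115 in Se-yeast replicate 3, against 159.9 to 175 in the other Se-yeast birds. INSR had 978 in Se-yeast replicate 4, against 471 to 563 in the other Se-yeast birds. HINTW had 16428 in Se-yeast replicate 1, against 6.34 to 19.5 in the other Se-yeast birds. HINTW was picked as the W-linked probe set that varied most over these birds, so the rate of 1 in 20 does not apply to it.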

How the results depend on the processing

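No member probe set passed the adjusted threshold under any of 20 alternatives, and HGF stayed positive in all of them, from 0.98 to 1.36 (adjusted p from 0.493 to 1.0). The number of probe sets past the threshold over the whole array, 6, fell to 3 with the replicate block, without a variance trend and with HINTW as a covariate. Leaving out single birds gave 3 to 7, with 3 when control replicate 3 or Se-yeast replicate 1, 3 or 4 was missing. Equal replicate numbers share only a number: deviations of same-numbered birds from their group means correlated at -0.11 to 0.04 over the tested probe sets, and no Se-yeast bird with a numbered partner matched that partner best. The replicate block changed no call of a member. Some changes that had not passed turned sign. The next brightest IGF2 probe set was at 0.29 and 0.13 with HINTW and LOC430910 as covariates and at -0.35 to 0.26 when single birds were left out, and the brightest at -0.17 to 0.11. With single birds left out, IGFBP1 lay at -0.23 to 0.23, IGFBP3 at -0.08 to 0.08 and the dimmer MET probe set at -0.06 to 0.19. The dim GHR probe set, at -0.12, was at 0.15 and 0.09 with the same covariates and at -0.28 to 0.14 with single birds left out, and the third IGF2 probe set at -0.33 to 0.04. With the replicate block IGFBP3 was at 0.05 and the dimmer MET probe set at -0.0017. The median of the shared signalling list, 0.06, was -0.02 with the mean of all tested probe sets of a gene, and that of the IGF carrier and receptor list, 0.10, was 0.01. Centring on the array median gave 0.11 in place of 0.17 for the GH receptor list, 0.04 in place of 0.10 for the IGF list and 0.06 in place of 0.11 for the HGF list. The cause was not tested. With 5 and 4 arrays and dim IGF2 signals, small changes could not be told from the spread between birds. HGF was near the filter level of 64.7 in control replicate 4, at 64.3.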
